A study of Homo sapiens with 8 samples.

Results

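The genes described here encode proteins of the nuclear lamina and of chromatin: the lamins LMNA, LMNB1 and LMNB2, the lamin B receptor LBR, the high mobility group (HMG) proteins HMGB1, HMGB2, HMGA1 and HMGA2, and the heterochromatin protein CBX5. They were chosen by gene symbol and make up 9 of the 27945 gene rows in the count table. Each symbol matched 1 row, and all 9 passed the filter on low counts, as did 12844 rows in all. LMNB1 passed through its control libraries alone, since it would have been filtered out among the senescent libraries.

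Transcription was assayed by fastGRO-seq, a nascent RNA method, in IMR90 cells, primary fibroblasts of human lung, made senescent through an ER:RAS fusion, an oncogenic H-RAS joined to the estrogen receptor and switched on by 4-hydroxytamoxifen (4-OHT). In this assay nuclei are isolated and engaged polymerases add a labeled nucleotide to their transcripts, and the labeled RNA is captured and sequenced, so that reads report ongoing transcription over whole gene bodies. The 4 groups had 2 libraries each: control cells, which the labels call WT, and senescent cells, which received 4-OHT at 100 nM and were collected on day 6, with shControl, shMETTL3 or shMETTL14. The labels do not say whether the control cells hold the fusion without 4-OHT, and they name an shRNA for each senescent group but none for the control cells, so senescence and shRNA infection cannot be told apart in comparisons with control cells. METTL3 and METTL14 together form the enzyme that methylates adenosines in RNA.

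The lamins form a mesh under the inner nuclear membrane. LMNA encodes the A-type lamins, LMNB1 and LMNB2 the B-type lamins, and LBR a membrane protein that ties heterochromatin to the lamina. Loss of lamin B1 is widely used as a marker of senescence. HMGB1 and HMGB2 bend DNA, and HMGB1 also acts as an alarm signal when it leaves the cell, whereas HMGA1 and HMGA2 bind AT-rich DNA and are structural parts of the heterochromatin foci that form in senescent fibroblasts, together with HP1 proteins such as that encoded by CBX5.

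Library totals ran from 14897360 to 20306299 counts, of which 86.2% to 92.5% lay in 21 ribosomal RNA rows, and 1513930 to 2048475 counts per library lay on all other genes. The labels number the 2 libraries of a group but do not name separate cultures, so p-values measure the spread between these libraries. For senescent against proliferating cells, the paper describes 2 fastGRO-seq experiments as biologically independent. The variance between the 2 libraries was 5.13 times the sampling variance with shMETTL3, 2.52 with shMETTL14, 1.53 with shControl and 1.72 in control cells, so the shMETTL3 libraries differed most. METTL3 had 77 and 47 counts under shControl against 16 and 19 under shMETTL3, a log2 fold change of -2.04 ± 0.31 (SE; edgeR quasi-likelihood test, adjusted p = 1.8e-05). METTL14 had 24 and 28 counts with shControl against 18 and 14 with shMETTL14, and its difference of -0.86 ± 0.34 on the log2 scale missed the threshold (edgeR adjusted p = 0.076). These are counts of nascent RNA and do not measure how far either knockdown lowered mature mRNA or protein. The paper refers to a western blot for both knockdowns. All 10 fibroblast markers listed, among them the collagens COL1A1 and COL3A1, passed the filter, while of 8 markers of epithelial, endothelial and blood cells only CD68, a lysosomal protein of macrophages, did. CD68 had 17 and 16 counts in control cells and 26 to 60 in the senescent libraries, and its share in any result was not tested. EPCAM, PECAM1 and PTPRC had at most 4 counts in any library, CDH1 and CDH5 at most 2, KRT19 at most 7 and VWF at most 10.

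Per kilobase of counted gene body, transcription of these genes in control cells was highest at HMGA1 (38.3 normalized counts per kb), followed by LMNA (24.0), HMGA2 (14.04), HMGB2 (12.01), CBX5 (6.08), LMNB2 (5.05), LBR (2.62), LMNB1 (1.21) and HMGB1 (0.998). Normalized counts are counts divided by the relative effective library size (TMM), averaged over the 2 libraries. In senescent shControl cells the order was HMGA1 (63.1), HMGA2 (36.5), LMNA (15.9), HMGB2 (5.74), CBX5 (4.86), LMNB2 (3.27), LBR (1.83), HMGB1 (0.536) and LMNB1 (0.246), so that HMGA2 passed LMNA and LMNB1 moved to the last place. The counted HMGB1 row is 159.681 kb long, and 2 of the 3 HMGB1 starts in RefSeq lie 151661 and 152357 bases inside it, so its level per kilobase is averaged over far more sequence than those transcripts cover.

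**Figure D1:**
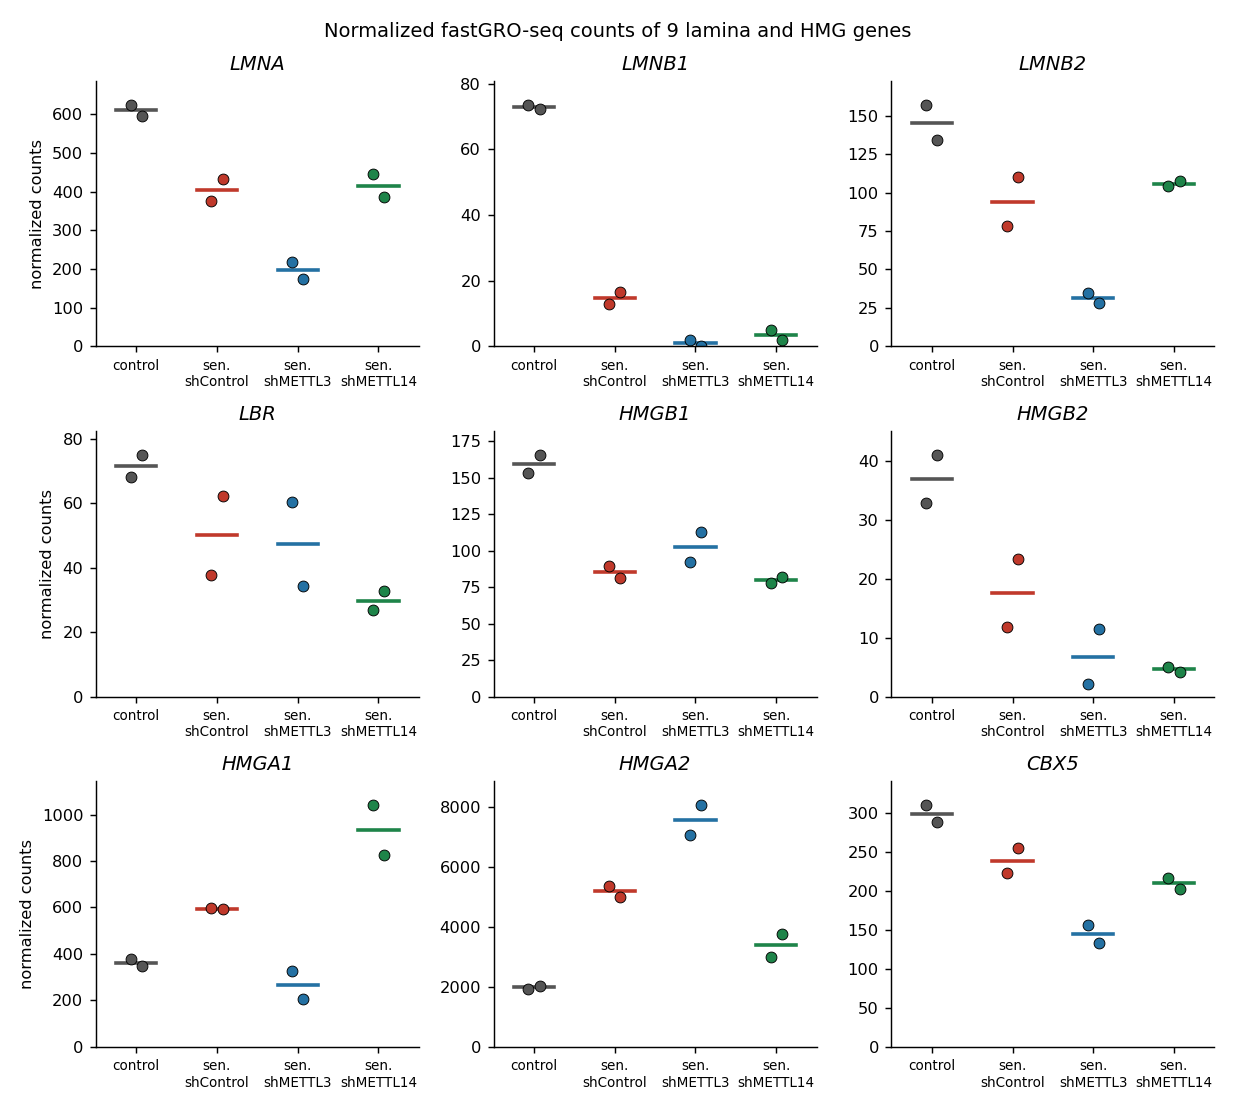
Normalized counts (y axis, from 0, a separate scale for each gene) of the 9 genes in the 4 groups (x axis; sen. means senescent), with a point for each of the 2 libraries and a line at their mean. LMNB1 had a mean of 72.9 in control cells and of 14.8, 1.03 and 3.55 in the senescent groups, while HMGA2 was highest with shMETTL3 (mean 7551) and HMGA1 with shMETTL14 (mean 932).

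Promoter sequences were in hand from RefSeq (GRCh38.p14; 250 bases before to 50 after the start) for 7 of the 9 genes, all but HMGB2 and HMGA2. For 6 of them an annotated start lay within 100 bases of the start of the counted row. The 4 of these whose gene was lower with shMETTL3 are shown, since the results on the knockdowns turn on them, as LMNB1 (chr5:126776373-126776672, plus strand), LMNB2 (chr19:2456910-2457209, minus strand), HMGA1 (chr6:34236623-34236922, plus strand) and CBX5 (chr12:54280073-54280372, minus strand). Capitals mark matches to motifs of cell cycle and stress regulation searched on both strands, none of which overlapped another here.
LMNB1: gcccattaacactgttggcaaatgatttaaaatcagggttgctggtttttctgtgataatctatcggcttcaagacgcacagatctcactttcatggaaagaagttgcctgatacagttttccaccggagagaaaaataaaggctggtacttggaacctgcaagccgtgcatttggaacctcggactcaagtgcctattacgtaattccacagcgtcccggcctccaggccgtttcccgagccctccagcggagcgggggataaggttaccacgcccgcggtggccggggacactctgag
LMNB2: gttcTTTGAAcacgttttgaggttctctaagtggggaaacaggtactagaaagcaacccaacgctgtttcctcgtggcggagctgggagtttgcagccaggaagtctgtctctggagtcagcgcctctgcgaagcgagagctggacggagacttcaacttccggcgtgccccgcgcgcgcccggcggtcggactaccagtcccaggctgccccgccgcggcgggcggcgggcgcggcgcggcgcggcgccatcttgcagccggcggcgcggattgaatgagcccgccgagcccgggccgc
HMGA1: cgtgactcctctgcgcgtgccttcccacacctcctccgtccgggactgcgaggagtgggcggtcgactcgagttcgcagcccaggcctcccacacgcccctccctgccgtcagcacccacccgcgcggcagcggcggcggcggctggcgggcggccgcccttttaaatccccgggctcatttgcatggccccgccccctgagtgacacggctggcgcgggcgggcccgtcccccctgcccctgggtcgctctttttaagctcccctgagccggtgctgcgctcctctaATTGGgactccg
CBX5: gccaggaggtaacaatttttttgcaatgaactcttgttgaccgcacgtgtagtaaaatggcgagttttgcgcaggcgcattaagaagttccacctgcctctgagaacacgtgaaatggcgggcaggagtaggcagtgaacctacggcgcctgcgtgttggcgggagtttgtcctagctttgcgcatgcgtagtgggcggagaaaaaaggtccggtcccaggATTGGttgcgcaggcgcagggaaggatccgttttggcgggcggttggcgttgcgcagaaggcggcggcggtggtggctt
The motifs were the CHR element of cell cycle genes (TTTGAA or TTCGAA), found in 16.4% of the 35116 promoters in the table, the E2F site (TTTCCCGC, TTTCGCGC, TTTGCCGC or TTTGGCGC) in 3.31%, the CCAAT box (CCAAT) in 34.6%, and the AP-1 site (TGANTCA) in 7.71%. The LMNB2 sequence holds 1 CHR element at position -246 from the start, the HMGA1 sequence 1 CCAAT box at position 38 and the CBX5 sequence 1 at position -29, both on the other strand, where they read ATTGG. The LMNB1 sequence shown holds none of these letters, and its other listed promoter, with a start 513 bases inside the row, holds 1 CCAAT box at position -138. The AP-1 letters were found in the LBR promoter alone among the 15 promoters listed for the 7 genes, at position -51, and the E2F letters in 1 LMNA promoter whose start lies 32097 bases before that of the counted row.

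Against control cells, senescent shControl cells transcribed HMGA1 and HMGA2 more and LMNA, LMNB2 and HMGB1 less, and LMNB1 was also lower. HMGA2 rose 2.60-fold and HMGB1 fell to 0.537 of the control level. Of the 9 genes, 2 were called higher and 4 lower by edgeR's quasi-likelihood test (Benjamini-Hochberg adjusted p below 0.05 over all 12844 genes tested), where 26.6% of all genes tested were called, 13.3% in each direction. LMNB1, 1 of the 4, passed the filter through its control libraries alone, so that a lower value against control was given by its entry into the test, here and in the comparisons of the knockdowns with control cells. The 2 libraries of a group did not overlap with those of the other for all 9 genes, as for 66% of all genes tested. The median log2 fold change was -0.60 over the 9 genes and -0.03 over all genes tested.

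With METTL3 knocked down in senescent cells, LMNA, LMNB1, LMNB2, HMGA1 and CBX5 fell and HMGA2 rose against shControl. These are 5 genes lower and 1 higher of 9, where 23.4% of all genes tested were called, 11.2% lower and 12.2% higher. Libraries did not overlap for 8 genes, against 58.4% of all genes tested, and the median log2 fold change was -1.04 over the 9 genes and -0.03 over all.

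With shMETTL14 in senescent cells, HMGA1 rose and LMNB1, HMGB2 and HMGA2 fell against shControl. That is 1 gene higher and 3 lower of 9, where 21.2% of all genes tested were called, 9.15% higher and 12% lower. Libraries did not overlap for 6 genes, against 64.3% of all genes tested, and the median log2 fold change was -0.19 over the 9 genes and -6.4e-05 over all. Both knockdowns are set against the same 2 shControl libraries, so they were also compared directly: LMNA, LMNB2, HMGA1 and CBX5 were higher and HMGA2 lower with shMETTL14 than with shMETTL3, 4 and 1 of 9 genes, where 35.2% of all genes tested were called, 16.5% higher and 18.7% lower. Libraries of the 2 knockdowns did not overlap for 8 genes, against 66.3% of all. Against control cells, 1 gene was higher and 7 lower with shMETTL3 (40.2% of all genes tested called, 20.1% in each direction, libraries apart for 9 genes and for 67.3% of all), and 2 were higher and 7 lower with shMETTL14 (40.2% called, 19.7% higher and 20.5% lower, libraries apart for 9 genes and for 72.4% of all). Among these, the fall of HMGA1 with shMETTL3 (-0.44, edgeR adjusted p = 0.039) lost its call in 8 of 14 alternatives, with an adjusted p of 0.53 without shMETTL3 replicate 2, 0.20 without control replicate 1 and 0.082 without control replicate 2. The fall of LMNB2 with shMETTL14 (-0.46, edgeR adjusted p = 0.049) lost its call in 10 of 14, with an adjusted p of 0.30 and 0.068 without control replicate 1 and 2, and of 0.22 and 0.14 without shMETTL14 replicate 1 and 2.

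**Figure D2:**
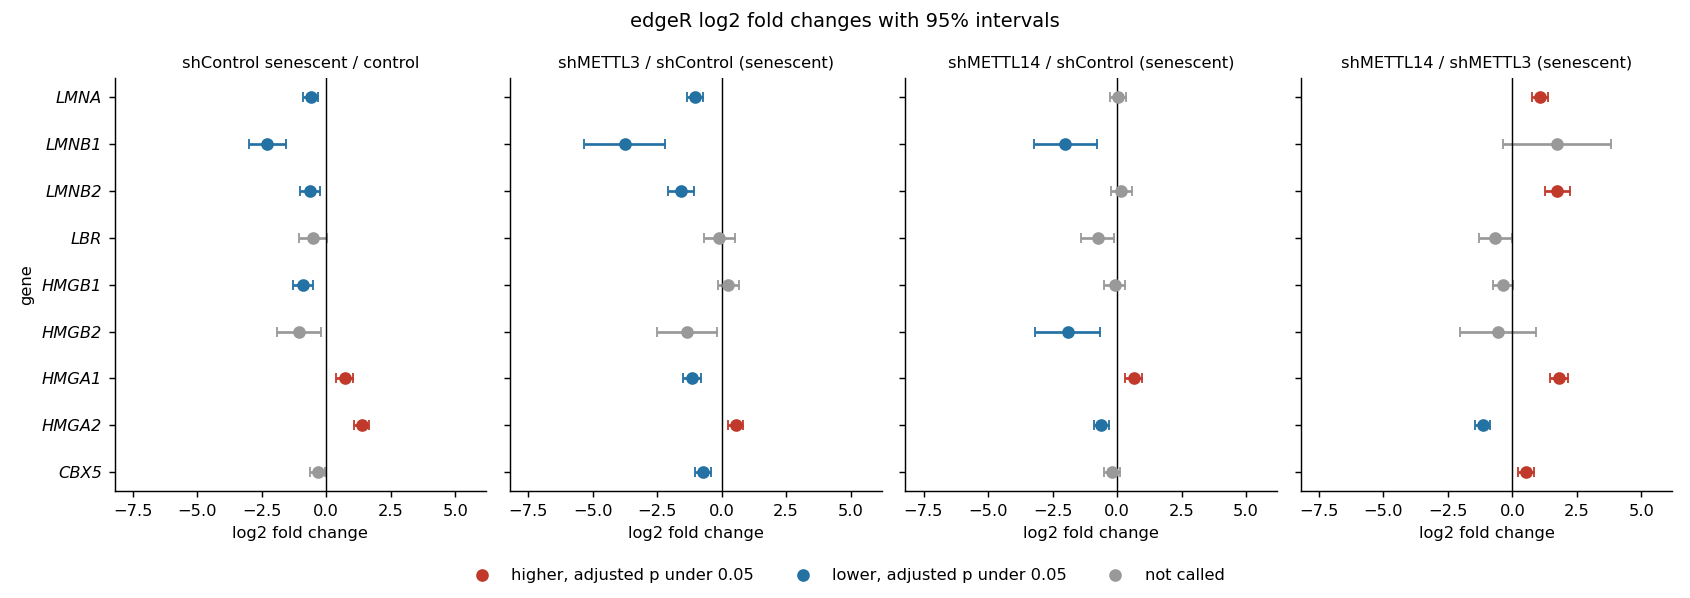
Log2 fold changes (x axis) of the 9 genes (y axis) in 4 comparisons, with 95% intervals from the edgeR fit; colors mark genes called higher or lower at an adjusted p under 0.05. HMGA1 and HMGA2 lie on the same side of 0 in senescence and on opposite sides with each knockdown.

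LMNB1 (chr5:126112315-126172712 on hg19, plus strand) had the fewest counts of the lamins in senescent cells. It had 83 and 83 counts in control cells, 11 and 15 under shControl, 2 and 0 under shMETTL3, and 5 and 2 under shMETTL14. The control libraries stood above all senescent ones, and both shControl libraries above all libraries of the knockdowns. Its log2 difference from control cells in senescence, -2.28, is a description, since the filter was passed through the control libraries. With shMETTL14 its log2 fold change against shControl was -2.02 ± 0.59 (SE, n = 2 per group, edgeR adjusted p = 0.016). With shMETTL3 only 2 counts remained in the group, so that the ratio of shControl to shMETTL3 was 15.1 with a 95% exact binomial interval of 3.78 to 131 for counting error alone, and the edgeR test called it lower (log2 fold change -3.76, adjusted p = 0.00062). That value became -6.92 (adjusted p = 0.00026) without shMETTL3 replicate 1 and -2.81 (adjusted p = 0.011) without shMETTL3 replicate 2. The shMETTL14 and shMETTL3 groups were not told apart (log2 difference 1.74, 95% interval -0.35 to 3.83, edgeR adjusted p = 0.19). With single libraries left out this difference ranged from 0.79 to 4.90, and 1 of 12 alternatives called it. The call with shMETTL14 was lost without shControl replicate 2 (-1.83, adjusted p = 0.12) or shMETTL14 replicate 2 (-1.55, adjusted p = 0.14).

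LMNA (chr1:156084461-156109880, plus strand) had 704 and 685 counts in control cells, 317 and 388 under shControl, 213 and 184 under shMETTL3, and 445 and 366 under shMETTL14. As normalized counts the group means were 610 ± 19.0, 403 ± 40.4, 197 ± 31.0 and 415 ± 42.0 (SD, n = 2). The shMETTL3 libraries were the lowest and the control libraries the highest, while those of shControl and shMETTL14 overlapped. LMNA fell by 0.60 ± 0.14 on the log2 scale in senescence (edgeR adjusted p = 0.002) and by 1.04 ± 0.15 with shMETTL3 (edgeR adjusted p = 1.2e-05). With shMETTL14 the difference was 0.04, with a 95% interval of -0.25 to 0.34 (edgeR adjusted p = 0.88), and the direct difference of shMETTL14 from shMETTL3 was 1.08 ± 0.15 (edgeR adjusted p = 3.1e-06). The call in senescence was lost without shControl replicate 1 (-0.49, adjusted p = 0.088).

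LMNB2 (chr19:2428163-2456966, minus strand) followed the same order. It had 177 and 154 counts in control cells, 66 and 99 under shControl, 34 and 30 under shMETTL3, and 104 and 102 under shMETTL14. The shMETTL3 libraries held the fewest counts and overlapped with no other group. LMNB2 fell by 1.58 ± 0.24 on the log2 scale with shMETTL3 (edgeR adjusted p = 2e-05), was 0.16 apart with shMETTL14 (95% interval -0.25 to 0.57, edgeR adjusted p = 0.62), and was 1.74 ± 0.23 higher with shMETTL14 than with shMETTL3 (edgeR adjusted p = 1.8e-06). Its fall of 0.62 ± 0.19 in senescence (edgeR adjusted p = 0.016) was lost without control replicate 1 (-0.50, adjusted p = 0.17), without shControl replicate 1 (-0.39, adjusted p = 0.31) and with DESeq2 (adjusted p = 0.11).

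LBR (chr1:225589204-225616557, minus strand) was called in none of the comparisons among senescent groups with TMM over all 8 libraries. It had 77 and 86 counts in control cells, 32 and 56 under shControl, 59 and 36 under shMETTL3, and 27 and 31 under shMETTL14. The control libraries were above the others, and the libraries of shControl and shMETTL3 overlapped. Its log2 difference was -0.51 ± 0.27 in senescence (edgeR adjusted p = 0.18), -0.10 ± 0.29 with shMETTL3 (edgeR adjusted p = 0.85) and -0.75 ± 0.31 with shMETTL14 (edgeR adjusted p = 0.088). Against control cells it was lower with shMETTL14 (-1.26 ± 0.29, edgeR adjusted p = 0.00092). Under library size alone it was called lower in senescence (-0.997, adjusted p = 0.0019) and lower with shMETTL14 than with shMETTL3 (-0.91, adjusted p = 0.014), a difference also called without shMETTL3 replicate 2 (adjusted p = 0.014). Fitted on only the 2 groups compared, it was called lower with shMETTL14 (-0.77, adjusted p = 0.043). Without shControl replicate 1 its difference was -0.19 in senescence and -1.06 with shMETTL14, and without shControl replicate 2 it was -0.90 and -0.35, uncalled in each case.

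HMGB1 (chr13:31032053-31191734, minus strand) fell in senescence and was called in neither knockdown. In control cells it had 173 and 190 counts, followed by 76 and 73 under shControl, 90 and 119 under shMETTL3, and 78 and 78 under shMETTL14. All senescent libraries lay below both control libraries. The log2 fold change in senescence was -0.90 ± 0.18 (edgeR adjusted p = 0.00039) and kept its call in all 14 alternatives. With shMETTL3 the difference was 0.27 (95% interval -0.13 to 0.66, edgeR adjusted p = 0.34), called higher under library size alone (0.89, adjusted p = 0.0011), and with shMETTL14 it was -0.09 (95% interval -0.50 to 0.31, edgeR adjusted p = 0.78). HMGB1 and HMGB2 have processed copies elsewhere in the genome, and how reads that match several places were counted is not given in the sources used here, so reads from their exons are uncertain. USPL1, whose row begins 81 bases from that of HMGB1 on the other strand, had a difference of 0.20 in senescence (edgeR adjusted p = 0.53).

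HMGB2 (chr4:174252527-174255595, minus strand) is a short row with few counts: 37 and 47 in control cells, 10 and 21 under shControl, 2 and 12 under shMETTL3, and 5 and 4 under shMETTL14. Control libraries were the highest, and the 2 shMETTL3 libraries lay on both sides of those with shMETTL14. The difference in senescence, -1.05 ± 0.42 on the log2 scale, missed the threshold (edgeR adjusted p = 0.068) but was called in 4 of 13 alternatives and ranged from -1.62 to -0.65, and that with shMETTL3 missed it too (-1.35 ± 0.56, edgeR adjusted p = 0.083). With shMETTL14 HMGB2 fell by 1.91 ± 0.61 (edgeR adjusted p = 0.026), a call lost without shControl replicate 2 (-1.34, adjusted p = 0.33), without shMETTL14 replicate 1 (-2.06, adjusted p = 0.12) or 2 (-1.80, adjusted p = 0.12) and with DESeq2 (adjusted p = 0.078). Leaving out shMETTL3 replicate 2 turned the direct difference of the knockdowns from -0.56 to 1.14, uncalled in both, and brought the difference of shMETTL3 from shControl to -3.06 (adjusted p = 0.0071).

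HMGA1 (chr6:34204577-34214008, plus strand) rose in senescence, fell with shMETTL3 and rose further with shMETTL14. It had 425 and 398 counts in control cells, 506 and 532 under shControl, 319 and 216 under shMETTL3, and 1040 and 783 under shMETTL14. As normalized counts the means were 361 ± 21.1, 595 ± 4.32, 266 ± 86.4 and 932 ± 152 (SD, n = 2), with no overlap between any pair of groups. The log2 fold change was 0.72 ± 0.17 in senescence (edgeR adjusted p = 0.0015), -1.16 ± 0.17 with shMETTL3 (edgeR adjusted p = 1.2e-05) and 0.65 ± 0.16 with shMETTL14 (edgeR adjusted p = 0.0044). The rise with shMETTL14 lost its call without shControl replicate 1 (0.65, adjusted p = 0.056), shControl replicate 2 (0.64, adjusted p = 0.069) or shMETTL14 replicate 1 (0.45, adjusted p = 0.12). The direct difference of shMETTL14 from shMETTL3 was 1.81 ± 0.17 (edgeR adjusted p = 8.3e-09) and kept its call in all 14 alternatives.

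HMGA2 (chr12:66218240-66360071, plus strand) rose in senescence as HMGA1 did, but rose with shMETTL3 and fell with shMETTL14. It had 2192 and 2344 counts in control cells, 4539 and 4482 under shControl, 6875 and 8476 under shMETTL3, and 3007 and 3570 under shMETTL14. The groups were in the order control, shMETTL14, shControl and shMETTL3 with no overlap. In senescence the log2 fold change was 1.38 ± 0.14 (edgeR adjusted p = 2.1e-08), a 2.60-fold rise called in all 15 alternatives. It was 0.54 ± 0.14 with shMETTL3 (edgeR adjusted p = 0.0056) and -0.61 ± 0.14 with shMETTL14 (edgeR adjusted p = 0.0023). The rise with shMETTL3 lost its call without shControl replicate 2 (0.48, adjusted p = 0.12), and the fall with shMETTL14 without shControl replicate 1 (-0.56, adjusted p = 0.057). The direct difference of shMETTL14 from shMETTL3 was -1.16 ± 0.14 (edgeR adjusted p = 4.7e-07) and kept its call in all 15 alternatives.

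HMGA2 shares sequence with genes on the other strand, and whether the counts separate strands is unsettled, since the counting command in the file header sets a strand option. In 60 of 61 cases where a gene lay wholly within another transcribed the other way, the count of the enclosing gene reached or exceeded that of the enclosed gene in every library, but an enclosing gene is also the longer one. LOC100129940 lies wholly inside HMGA2 and covers 21.8% of it, and RPSAP52 overlaps it by 2515 bases. With all counts of both taken off, HMGA2 kept 1512 and 1610 counts in control cells, 3214 and 3147 under shControl, 4943 and 6325 under shMETTL3, and 2020 and 2494 under shMETTL14. The order of the groups was the same, and the log2 fold changes of 1.41 in senescence, 0.60 with shMETTL3 and -0.65 with shMETTL14 were all called by edgeR (adjusted p = 2.4e-08, 0.0032 and 0.0017).

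CBX5 (chr12:54624731-54673915, minus strand), which encodes HP1α, fell with shMETTL3. Control cells held 350 and 331 of its counts, followed by 189 and 229 under shControl, 152 and 141 under shMETTL3, and 217 and 193 under shMETTL14. The shMETTL3 libraries were the lowest after normalization. The log2 fold change was -0.73 ± 0.15 with shMETTL3 (edgeR adjusted p = 0.00089), -0.32 ± 0.14 in senescence (edgeR adjusted p = 0.096, called in 3 of 14 alternatives) and -0.19 ± 0.15 with shMETTL14 (95% interval -0.49 to 0.11, edgeR adjusted p = 0.40). The direct difference of shMETTL14 from shMETTL3, 0.54 ± 0.15 (edgeR adjusted p = 0.0074), was lost without shMETTL14 replicate 1 (0.47, adjusted p = 0.09), with DESeq2 (adjusted p = 0.051) and with library size alone (0.28, adjusted p = 0.28). HNRNPA1, an RNA-binding protein gene whose row starts 558 bases away on the other strand, fell in all of these comparisons with shControl or control cells (-0.59 in senescence, -0.76 with shMETTL3 and -0.79 with shMETTL14, edgeR adjusted p = 0.0044, 0.0015 and 0.0012).

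Among genes for proteins that bind or process lamins, 22 were tested. Of these 22 genes tested, 2 rose and 2 fell in senescence, led by ZMPSTE24, the protease that matures lamin A (0.88 ± 0.18, edgeR adjusted p = 0.00047), and SYNE2, a nesprin of the outer nuclear membrane (-2.01 ± 0.26, edgeR adjusted p = 9.2e-07). With shMETTL3 none rose and 6 fell (TMPO, BANF1, SUN2, SYNE3, ICMT and PRR14), with TMPO, the lamin-binding protein LAP2, at -1.34 ± 0.25 (edgeR adjusted p = 0.00026). With shMETTL14, 2 rose, led by ANKLE2 (0.60 ± 0.16, edgeR adjusted p = 0.01), and 4 fell, led by NEMP1, a protein of the inner nuclear membrane (-1.64 ± 0.37, edgeR adjusted p = 0.0017). The shares of the list called higher and lower were 9.09% and 9.09%, 0% and 27.3%, and 9.09% and 18.2% in the 3 comparisons. Over all genes tested they were 13.3% and 13.3%, 12.2% and 11.2%, and 9.15% and 12%. The median log2 fold change of the list was -0.13, -0.37 and -0.05 in the 3 comparisons. Under library size alone the calls were 0 higher and 11 lower in senescence, 7 and 1 with shMETTL3, and 5 and 2 with shMETTL14. On that scale the median of the list was -0.63, 0.25 and 0.30, and that of all genes tested -0.53, 0.58 and 0.35. The same shifts of all genes apply to the lists below. DESeq2 called 2 of the list lower with shMETTL3.

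The other HMG genes numbered 13 among those tested. In senescence 1 rose and 3 fell, with shMETTL3 1 rose and 1 fell, and with shMETTL14 1 rose and 2 fell. The shares were 7.69% and 23.1%, 7.69% and 7.69%, and 7.69% and 15.4%. Over all genes tested they were 13.3% and 13.3%, 12.2% and 11.2%, and 9.15% and 12%. HMGXB3 was the gene that rose each time (0.60, 0.59 and 0.45 on the log2 scale, edgeR adjusted p = 0.011, 0.009 and 0.049). HMGN3, a nucleosome-binding protein, fell in senescence (-1.20 ± 0.37, edgeR adjusted p = 0.017), SSRP1, a subunit of the histone chaperone FACT, with shMETTL3 (-0.79 ± 0.21, edgeR adjusted p = 0.007), and HMGN1 with shMETTL14 (-0.84 ± 0.22, edgeR adjusted p = 0.0066). With DESeq2, 0 of the 3 falls in senescence were called, nor were the fall of SSRP1 with shMETTL3 (adjusted p = 0.061) and the rise of HMGXB3 with shMETTL14 (adjusted p = 0.18), which was also lost without any 1 of the 4 libraries compared. The median log2 fold change was -0.13, -0.46 and -0.09 in the 3 comparisons, and with library size alone 0 rose and 6 fell in senescence, 5 rose and 0 fell with shMETTL3, and 3 rose and 0 fell with shMETTL14.

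Of 20 other HP1 and heterochromatin genes, 0 rose and 5 fell in senescence, 4 rose and 0 fell with shMETTL3, and 1 rose and 3 fell with shMETTL14. The shares were 0% and 25%, 20% and 0%, and 5% and 15%. Over all genes tested they were 13.3% and 13.3%, 12.2% and 11.2%, and 9.15% and 12%. The falls in senescence were CBX1, which encodes HP1β, the histone methyltransferases SETDB1, SETDB2 and EHMT1, and the macroH2A gene H2AFY2 (-1.37 ± 0.42, edgeR adjusted p = 0.015), and 0 of them were called by DESeq2. With shMETTL3 the largest rise was that of the histone chaperone ASF1A (1.13 ± 0.41, edgeR adjusted p = 0.047), which rested on shMETTL3 replicate 2: it had 15 and 20 counts under shControl and 19 and 71 under shMETTL3, and without that library the difference was -0.06. H2AFY, ATRX and EHMT1 rose as well (0.81, 0.61 and 0.41, edgeR adjusted p = 0.00017, 0.0033 and 0.029). With shMETTL14 the linker histone gene H1F0 rose (1.43 ± 0.27, edgeR adjusted p = 0.00035) and RB1, the retinoblastoma protein, fell (-0.83 ± 0.18, edgeR adjusted p = 0.0016). The median log2 fold change of the list was -0.20, 0.10 and 0.06 in the 3 comparisons, and under library size alone the calls were 0 higher and 15 lower in senescence, 9 higher and 0 lower with shMETTL3, and 4 higher and 0 lower with shMETTL14. DESeq2 called 2 higher with shMETTL3.

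Of 17 genes of cell division tested, 12 fell in senescence, led by TOP2A among those averaging 20 counts or more (-2.27 ± 0.28, edgeR adjusted p = 3.2e-07), and 7 fell with each knockdown, with no called rise in any of the 3 comparisons. The shares called lower were 70.6%, 41.2% and 41.2%, against 13.3%, 11.2% and 12% of all genes tested. Of the 12, 5 (CDK1, BUB1, PLK1, CENPE and RRM2) passed the filter through the control libraries alone, so that a lower value against control was given by their entry into the test. DESeq2 called 9, 4 and 6 of them lower, and library size alone 16, 3 and 7. MKI67, the proliferation antigen, had 25 and 53 counts under shControl, 1 and 0 under shMETTL3, and 1 and 3 under shMETTL14. Its ratio of shControl to shMETTL3 was 90.7 (95% exact binomial interval 15.8 to 3627, counting error alone). The median log2 fold change of the list was -1.78 in senescence, -1.33 with shMETTL3 and -1.47 with shMETTL14. It includes 6 genes that passed through the control libraries alone, the 5 above and CCNA2.

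Among arrest genes, GDF15, a secreted stress cytokine, had the largest rise in senescence (3.96 ± 0.21, edgeR adjusted p = 3.5e-14), and the cell cycle inhibitor genes CDKN1A and CDKN2B rose by 1.12 and 2.31 on the log2 scale. With shMETTL3 CDKN2B rose (0.94 ± 0.17, edgeR adjusted p = 0.00014) and GDF15 fell (-0.64 ± 0.16, edgeR adjusted p = 0.0054), and with shMETTL14 CDKN1A, the inhibitor p21, rose (1.01 ± 0.14, edgeR adjusted p = 6.6e-06). Of 4 tested genes of the let-7 and HMGA2 axis, 0 rose and 1 fell in senescence (IGF2BP3, -0.40 ± 0.13, edgeR adjusted p = 0.025), none was called with shMETTL3, and IGF2BP2 rose with shMETTL14 (0.44 ± 0.13, edgeR adjusted p = 0.017). The fall of GDF15 lost its call under library size alone (-0.03, adjusted p = 0.89), without shControl replicate 1 (-0.56, adjusted p = 0.08) and without shMETTL3 replicate 2 (-0.37, adjusted p = 0.086). Under library size alone, 4 of the 4 let-7 axis genes were lower in senescence and 4 higher with shMETTL3. The fall of IGF2BP3 lost its call with DESeq2 (adjusted p = 0.082) and without any 1 of the 4 libraries compared (adjusted p = 0.11 to 0.16). The rise of IGF2BP2 lost its call without shControl replicate 1 (0.39, adjusted p = 0.18), shControl replicate 2 (0.49, adjusted p = 0.096) or shMETTL14 replicate 1 (0.35, adjusted p = 0.16). The 6 genes listed as HMGB1 receptors or partners, such as AGER and TLR4, had too few counts to be tested. Of 10 fibroblast markers 1 rose and 7 fell in senescence, 2 rose and 2 fell with shMETTL3, and 0 rose and 8 fell with shMETTL14. Under library size alone the counts were 0 and 8, 5 and 1, and 1 and 5. For these markers and the let-7 axis, the shares of all genes tested called higher and lower were 13.3% and 13.3% in senescence. They were 12.2% and 11.2% with shMETTL3, and 9.15% and 12% with shMETTL14.

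**Figure D3:**
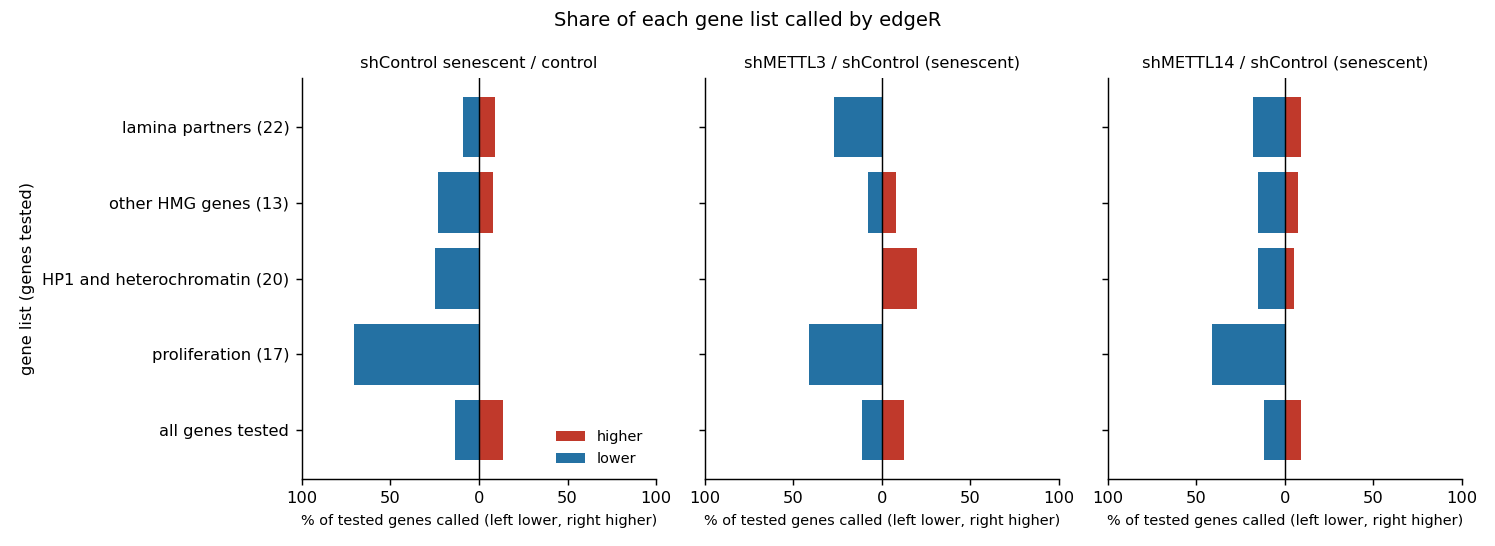
Share of the tested genes of each list called higher (right) or lower (left) by edgeR (x axis, percent) in 3 comparisons, with all 12844 genes tested in the lowest row. Proliferation genes were called lower in each comparison (12, 7 and 7 of 17), while of the lamina partners 6 of 22 were lower with shMETTL3. Of the 12, 5 passed the filter through the control libraries alone, so their lower value against control was given by entry.

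Scaling shifts all genes together. With library size in place of TMM, the median log2 fold change of all genes was -0.53 in senescence, 0.58 with shMETTL3 and 0.35 with shMETTL14, so values on that scale are read against these shifts. On it the 9 genes held 1 called rise and 7 called falls in senescence, 2 and 4 with shMETTL3, and 1 and 2 with shMETTL14, and HMGA1 was 0.22 higher (edgeR adjusted p = 0.31). LMNA, LMNB1, LMNB2 and HMGA1 remained lower and HMGA2 higher with shMETTL3, whereas CBX5 lost its call (-0.12, adjusted p = 0.66). With shMETTL14 HMGA1 remained higher, and the fall of HMGA2 lost its call (-0.27, adjusted p = 0.11).

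**Figure D4:**
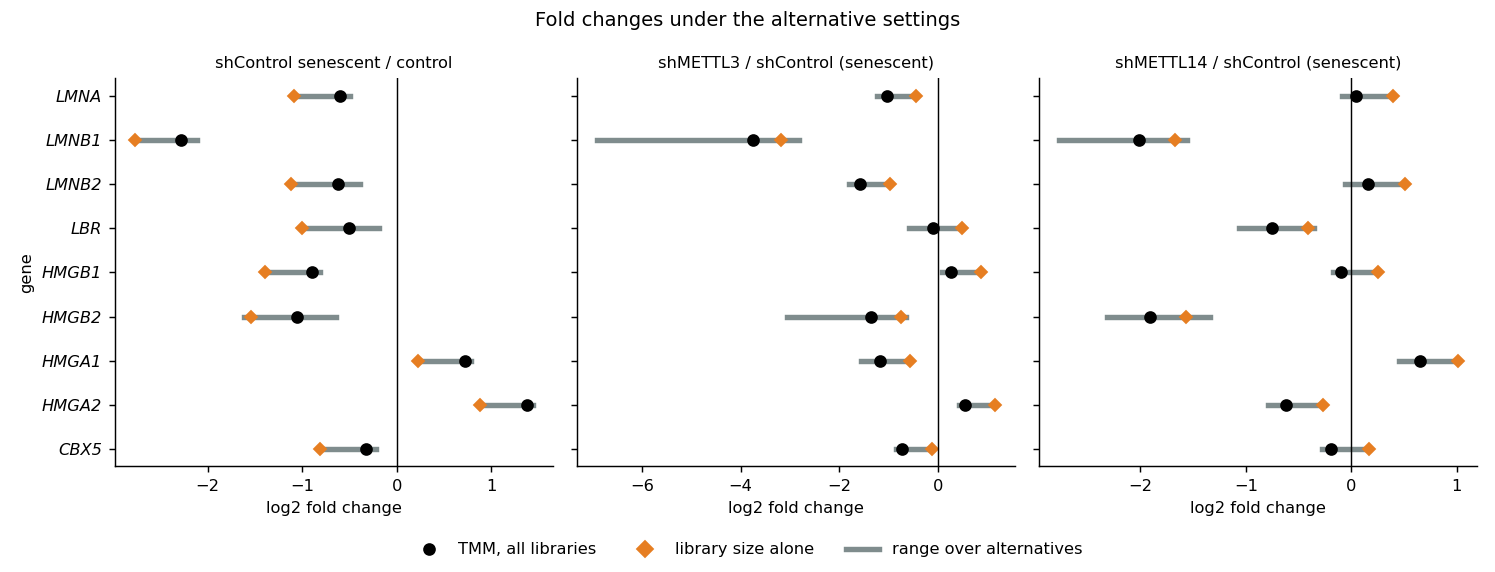
Log2 fold change (x axis) of each gene (y axis) in 3 comparisons by TMM over all libraries (black), by library size alone (orange) and as the range over all alternatives (gray). The signs of HMGA1 and HMGA2 were the same over the whole range in each comparison, whereas the values of LBR with shMETTL3 and of LMNA, LMNB2, HMGB1 and CBX5 with shMETTL14 crossed 0.

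For each gene the most similar profile was sought among genes averaging 50 counts or more, as the smallest root mean square difference of centered log2 CPM over the 8 libraries. LMNA was closest to CTSC, the lysosomal protease cathepsin C (0.105), LMNB2 to HSPG2, the basement membrane proteoglycan perlecan (0.141), and CBX5 to DLGAP4-AS1 (0.0582). HMGA1 was closest to TUBB3, a beta tubulin (0.145), and HMGA2 to RRM2B, a subunit of ribonucleotide reductase (0.116). HMGB1 was closest to POLA1, a subunit of DNA polymerase alpha (0.0807), and LBR to TNRC6C (0.154). LMNB1 and HMGB2, the members with the fewest counts, lay farther from their closest profiles, DCN, the matrix proteoglycan decorin (0.793), and MYBL1 (0.451), respectively. Between the genes of the set, LMNA and CBX5 were the closest pair (0.238), and HMGA2 was no closer to another member than 0.995, above the median distance of 0.762 from HMGA2 to all genes considered.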

How the data were processed

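The deposited table gives, for each library, the raw count of reads per gene body with introns, not normalized. Per the study's methods and the file header, the authors used the hg19 build and HOMER for counting. The submitters' notes name STAR and deepTools 3.3. The gene lengths that the authors deposited, in bases, gave levels per kilobase. The spike-in of Drosophila cells was not analysed here, and a shift common to every gene cannot be read from these fold changes.

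Counts of all 8 libraries were fitted with edgeR 4.0.16 in R 4.3.3 (TMM, filterByExpr with a minimum count of 10, quasi-likelihood test, Benjamini-Hochberg threshold 0.05). SE is the log2 fold change over the root of F. The biological coefficient of variation was 10.6%. DESeq2 1.42.0 was an alternative. Intervals of summed counts cover counting error only.

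Matplotlib 3.10.9 drew the plots. The genes and lists were chosen with earlier results of these data known. Beside the 9 genes, the text names METTL3 and METTL14, the largest called rise and fall of each list with a mean of at least 20 counts, overlapping and neighboring genes, and the most similar gene of each. The subtraction of overlapping counts from HMGA2 and the list counts by library size were added after seeing the data. Other list genes, CD68 and the markers at few counts were named after their values were seen. A gene of the arrest list is not reported here, so no count is given for that list.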

Additional observations from a re-analysis of the deposited data

Results flagged for a closer look

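HMGA1 and HMGA2 were picked out because the knockdowns of METTL3 and METTL14 had called effects of opposite sign on each, so the direct differences given here describe their size and are no further test. For HMGA1 the difference of shMETTL14 minus shMETTL3 was 1.81 on the log2 scale (95% interval 1.47 to 2.16), with both shMETTL14 libraries above and both shMETTL3 libraries below those of shControl. For HMGA2 it was -1.16 (95% interval -1.45 to -0.87), with both shMETTL3 libraries above and both shMETTL14 libraries below those of shControl.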

How the results depend on the processing

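Over the 9 genes in 6 comparisons, 672 of 746 values under other settings kept direction and side of the threshold, 46 lost and 18 gained a call, and 10 changed sign. The cause was not tested. With library size alone, the genes called in senescence were 1 higher and 7 lower, 2 were higher with shMETTL3, and 3 were lower with shMETTL14 than with shMETTL3. With shMETTL14, 1 gene was lower at a minimum of 10 counts in every library and also at an adjusted p below 0.01. Leaving out single libraries gave 2 to 4 genes lower in senescence, 0 to 1 higher with shMETTL3, 0 to 1 higher and 1 to 3 lower with shMETTL14, and 1 to 2 lower with shMETTL14 than with shMETTL3.

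Changes of sign were all in uncalled values except that of ASF1A. With library size alone they were LBR with shMETTL3 (0.50), and HMGB1 (0.26) and CBX5 (0.16) with shMETTL14, and without ribosomal RNA rows in the library size HMGB1 with shMETTL14 (0.0021). With single libraries left out, LMNA ranged from -0.087 to 0.14 and LMNB2 from -0.061 to 0.43 with shMETTL14, LBR from -0.57 to 0.30 and ASF1A from -0.061 to 1.73 with shMETTL3, and HMGB2 from -1.27 to 1.14 with shMETTL14 against shMETTL3.

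Same-numbered libraries did not deviate together (correlations -0.0453 to 0.0758), so the numbers name libraries only. With the replicate number as a block, 1731 genes were higher and 1673 lower in senescence against 1711 and 1702 without it, and of the 9 genes LMNB2 with shMETTL14 against control lost its call (-0.46, adjusted p = 0.05).

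DESeq2 called 1231 higher and 908 lower in senescence, 971 and 727 with shMETTL3, and 568 and 951 with shMETTL14, against 1711 and 1702, 1573 and 1434, and 1175 and 1545 by edgeR. With library size alone the counts were 752 and 5007, 5285 and 353, and 3163 and 710, and with library size without ribosomal RNA rows 1447 and 2158, 1188 and 1872, and 1619 and 1248. The low counts of LMNB1 and HMGB2 in the senescent groups limit what depth can show of them.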

Other observations

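The rows next to some of these genes gave values that belong in no comparison above. LMNB1-DT, a divergent transcript 136 bases from LMNB1, had 2 and 1 counts in control cells and 0 in all 6 senescent libraries, too few to be tested. MARCH3, on the other side of LMNB1, was higher in senescence by 1.45 on the log2 scale. DNAH14, an axonemal dynein gene next to LBR, was higher with shMETTL3 by 1.15. LOC100507065, the nearest row below HMGA2 at a gap of 182087 bases, had 26 and 22 counts in control cells, 131 and 137 under shControl, 166 and 157 under shMETTL3, and 76 and 94 under shMETTL14, and its log2 difference was 2.86 in senescence and -0.81 with shMETTL14.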
